A study of Rattus norvegicus with 8 samples.

Results

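The molecular chaperones of rat liver described here were the genes whose symbols begin with Hspa, Hspb, Hspd, Hspe, Hsph, Hsp90, Dnaja, Dnajb or Dnajc, together with Calr, Canx, Pdia3, Pdia4, Pdia6 and Hyou1. They numbered 70 of the 14511 genes that had a probe set with a single symbol, and each gene was represented by its probe set with the highest mean over the arrays. The rule also takes in Hspbp1 and Hspbap1, whose products bind heat shock proteins and are not chaperones by family. Of 83 protein-coding symbols in the current rat gene table that meet the rule, 13 had no probe set of their own. Among them, Hspa1a, Hspa1b and Hspa1l, the stress-inducible HSP70 genes and their close relative, share 1 probe set and are therefore not described.

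The samples were livers of female Wistar rats, an outbred laboratory strain, hybridised to Affymetrix Rat Gene 1.0 ST arrays, which read a transcript with probes spread along its length. There were 4 groups of 2 arrays each: remnant liver 8 h after partial hepatectomy (PH), in which the lateral lobes are removed, and livers of unoperated rats at 2, 4 and 12 weeks of age. No genetic change or drug was named for any group. The sources used here do not state how old the operated animals were, and sham surgery was not analysed here, so the comparison of PH with 12 weeks holds the operation, the hour of sampling and any gap in age together, and they cannot be told apart. The titles number the arrays of a group as biological replicates, but the design text also speaks of processing in duplicate, so p-values measure the spread between these arrays, which may be partly technical.

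Chaperones bind proteins that are not yet folded and keep them from clumping. HSP70 proteins hold and release short stretches of a client in a cycle driven by ATP. J-domain (DNAJ) co-chaperones bring clients to HSP70 and start its ATP hydrolysis, and HSP110 proteins help it to exchange nucleotide. HSP90 finishes the folding of kinases and steroid receptors, and small HSPs hold clients without ATP. The hepatocyte exports large amounts of plasma protein, and its endoplasmic reticulum (ER) carries a set of its own, with the HSP70 BiP (Hspa5), the HSP90 Grp94 (Hsp90b1), the lectins calnexin and calreticulin and the disulfide isomerases. Heat shock factor 1 induces the cytosolic set, and the unfolded protein response induces the ER set.

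Values below are log2 levels from robust multi-array averaging (RMA), and a difference of 1 is a 2-fold change. Each of 10 hepatocyte markers was measured, and their median lay between 13.24 and 13.51 on the 8 arrays. The 12-week arrays stood furthest apart: a difference of 2-fold or more was seen for 1838 of all genes there, but for 432 after PH, 480 in the 2-week and 621 in the 4-week pair. The median of 1255 olfactory, vomeronasal and trace amine receptors, genes of the sense organs, was 4.64 and 4.17 after PH, 4.05 and 4.06 at 2 weeks, 4.06 and 4.01 at 4 weeks, and 4.74 and 3.91 at 12 weeks. RMA compresses changes near the bottom of the scale, and no detection calls were used here. In whole liver, fewer cells of a type and less RNA per cell cannot be told apart.

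Some promoters of these genes carry the DNA elements through which both stress pathways are known to act, and each one that held a full element is shown. A window of 300 bases, from 250 before to 50 after the annotated start, was available in RefSeq (GRCr8) for 56 of the 70 members, in 57 windows. The ER stress response element was searched on both strands as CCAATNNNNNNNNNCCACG. It was present in 5 of the 57 windows (8.77%) and in 22 of all 33469 windows (0.0657%). All 5 belong to ER members. In the following stretches the capitals mark the element, and letters run 5′ to 3′ towards the gene.
Hspa5, chr3:38452953-38453011, plus strand: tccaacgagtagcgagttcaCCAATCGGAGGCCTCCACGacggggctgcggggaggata
Hsp90b1, chr7:23012327-23012489, minus strand: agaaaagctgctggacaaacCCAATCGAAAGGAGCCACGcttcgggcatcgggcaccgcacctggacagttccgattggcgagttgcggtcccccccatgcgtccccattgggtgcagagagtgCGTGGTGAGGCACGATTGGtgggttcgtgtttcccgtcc
Canx, chr10:35158049-35158107, minus strand: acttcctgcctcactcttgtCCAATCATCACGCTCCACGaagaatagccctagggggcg
Dnajc3, chr15:102432514-102432572, plus strand: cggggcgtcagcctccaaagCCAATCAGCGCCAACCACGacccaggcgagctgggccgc
Calr, chr19:40213117-40213173, plus strand: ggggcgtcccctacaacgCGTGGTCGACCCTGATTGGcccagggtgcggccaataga

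The heat shock element, the site of heat shock factor, was searched on both strands as 3 alternating units, GAANNTTCNNGAA or TTCNNGAANNTTC. It was present in 5 member windows (8.77%) and in 267 of all windows (0.798%), and its 5 members code for cytosolic or mitochondrial proteins. Hspd1 and Hspe1, the mitochondrial chaperonin and its lid, lie head to head, and the same letters on chromosome 9 serve as the match of both, read from opposite strands as 2 overlapping matches. Capitals mark the element.
Dnaja1, chr5:60638393-60638445, plus strand: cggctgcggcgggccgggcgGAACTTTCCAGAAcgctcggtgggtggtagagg
Hspa8, chr8:50080281-50080491, plus strand: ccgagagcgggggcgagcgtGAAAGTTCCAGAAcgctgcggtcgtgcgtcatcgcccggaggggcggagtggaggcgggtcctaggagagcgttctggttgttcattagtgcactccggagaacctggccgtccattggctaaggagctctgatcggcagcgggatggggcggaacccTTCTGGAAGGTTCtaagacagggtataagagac
Hspd1, chr9:64084242-64084287, minus strand: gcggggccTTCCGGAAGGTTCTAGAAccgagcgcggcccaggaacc
Hspe1, chr9:64084242-64084299, plus strand: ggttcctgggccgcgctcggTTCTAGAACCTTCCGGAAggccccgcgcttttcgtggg
Hsph1, chr12:10427312-10427364, plus strand: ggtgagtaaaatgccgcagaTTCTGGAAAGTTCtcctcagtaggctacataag

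Another motif, TGACGTG, the core of the unfolded protein response element, was present in 6 member windows (10.5%) and in 605 of all windows (1.81%). Its members were Hspa5, Hyou1, Dnajc10 and Dnajc25 of the ER, and Hsph1 and Dnajb3. In the member windows, matches of different motifs overlapped in 0 cases. The window of Hspa4l, the member with the largest difference between groups below, held none of the 3 motifs. A match describes letters only and is not a measurement of binding.

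Most of the chaperones gave signals above the median gene. Of the 70, 35 lay among the highest 25% of all genes by mean level (at or above 8.27), 53 were at or above the median gene (6.75) and 11 were among the lowest 25% (under 5.30). Probe sets differ in how they respond, so signals do not order the genes by abundance, and values are compared below only within a gene. The 10 strongest mean signals were those of Hspa8, the constitutive cytosolic HSP70 (13.36), Pdia3 (12.68), Hspa5 (12.47), Hsp90b1 (12.45), Hsp90ab1 (12.38), Canx (12.36), Calr (12.07), Hspa9 (11.84), Hspd1 (11.67) and Pdia4 (11.58). Of these 10 members, 6 belong to the ER. The weakest signals were those of Dnajc5g (3.58), Dnajb7 (3.72), Hspb7 (4.16), Hspa2 (4.52) and Dnajc6 (4.71). Hspa2 is the testis-enriched HSP70, and Dnajc6 codes for the neuronal clathrin-uncoating factor auxilin. Hspa8 had 8 probe sets with means between 12.44 and 13.36, whose differences had the same sign in each of the 4 comparisons. Whether these probe sets also read near-identical copies of Hspa8 was not tested, so its values are uncertain. The 2 probe sets of Dnajb12 gave the same values to 2 decimals.

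Only 1 member passed the test in any of the 4 comparisons, and it did so between the oldest and the youngest livers. Hspa4l, an HSP110 protein also called Apg1 that is best known from testis, was at 5.93 and 6.16 after PH, 4.60 and 4.16 at 2 weeks, 4.79 and 5.25 at 4 weeks, and 6.25 and 7.70 at 12 weeks. Both 12-week arrays lay above all others, the PH arrays came next, and the 2-week arrays were lowest. At 12 weeks it averaged 6.97 ± 1.02 (SD, n = 2) against 4.38 ± 0.31 at 2 weeks, a rise of 2.59 ± 0.44 (log2, SE), or 6.04-fold, with an adjusted p of 0.02343 in limma. In this comparison 2.23% of all genes were called in either direction and 0.937% as higher at 12 weeks, so 1 of 70 (1.43%) is close to that background. With only the second 12-week array the rise was 3.32, and with only the first 1.87, both past the threshold. Each of these fits takes the lone 12-week array to vary like the arrays of the other groups. The call was lost without the first 2-week array (2.82, adjusted p = 0.105) and without the second (2.37, adjusted p = 0.125), and with only the arrays of these 2 ages in the fit (2.59, adjusted p = 0.08201), each in limma. The difference of 12 from 4 weeks was 1.95 ± 0.44 (adjusted p = 0.375 in limma), and that of PH from 12 weeks was -0.93 ± 0.44 (adjusted p = 0.8958 in limma), at -1.65 from the second 12-week array alone and -0.20 from the first alone. The mean level was 5.60, below the median gene, where RMA compresses change. The 2-week values (4.60 and 4.16) lay near the medians of the olfactory and related receptors on those arrays (4.05 and 4.06). The size of the fold is therefore uncertain.

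**Figure D1:**
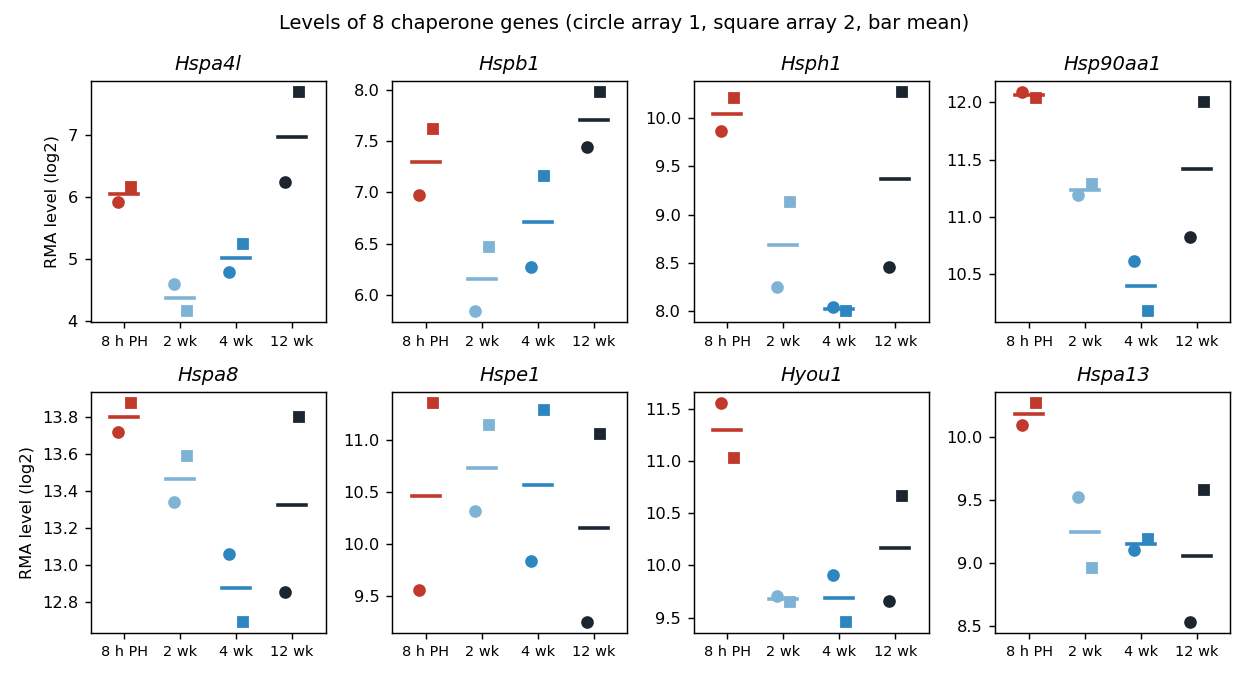
RMA levels (log2, vertical axes, each with its own scale) of 8 chaperone genes in the livers 8 h after PH and at 2, 4 and 12 weeks; circles are first arrays, squares second arrays and bars group means (n = 2). Hspa4l was highest on the 12-week arrays (6.25 and 7.70) and lowest at 2 weeks (4.60 and 4.16), and the 12-week arrays of Hsph1 (8.46 and 10.27) span most of the range of that gene.

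The small HSPs gave the next largest age difference. Hspb1 (Hsp27), a small HSP that also stabilises actin filaments, was at 6.97 and 7.62 after PH, 5.84 and 6.47 at 2 weeks, 6.27 and 7.16 at 4 weeks, and 7.44 and 7.98 at 12 weeks. The 12-week arrays were above every array of the younger livers, and the PH arrays overlapped with both 4 and 12 weeks. At 12 weeks Hspb1 was 1.55 ± 0.39 above 2 weeks (log2, SE; adjusted p = 0.1108 in limma) and 0.99 ± 0.39 above 4 weeks (adjusted p = 0.9994), neither past the threshold. With arrays centred on the 75th percentile the difference of 12 from 2 weeks was 1.66 and was called (adjusted p = 0.04692 in limma). The second array was higher in every group, by 0.54 to 0.88. Hspb8, which works with the co-chaperone Bag3 in selective autophagy, differed by 0.65 ± 0.39 between 12 and 2 weeks, with 8.70 and 9.91 at 12 weeks against 8.38 and 8.93 at 2 weeks, so the groups overlapped. Hspb6 (Hsp20), abundant in muscle, differed by 0.07 ± 0.24 in the same comparison. All 7 measured small HSPs were above 0 at 12 against 2 weeks (median 0.22) and at 4 against 2 weeks (median 0.27), where all genes had medians of 0.01 and 0.00 and 51.6% and 50.2% of them were above 0. Without the first 2-week array the count was 4 of 7 in both comparisons. The second 2-week array, which then stood alone, had the highest summed level of 9 muscle markers, 1004 against 427.3 on the first and 379.9 to 491.2 on the other arrays, and the part of this in the small HSP values was not tested. Hspb2, Hspb3, Hspb7 and Hspb9 had mean levels between 4.16 and 5.77, below the median gene. Hspb9, known from testis, was the only member with an unadjusted p under 0.05 between 4 and 2 weeks (0.56 ± 0.23, adjusted p = 0.6493 in limma), at 5.27 and 5.05 against 4.45 and 4.75.

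Markers of other cells differed between the same ages. Between 12 and 2 weeks all 8 measured erythroid markers were lower at 12 weeks (3 called), and their summed linear level was 840.1 and 1897 at 12 weeks against 6777 and 5295 at 2 weeks. All 14 stellate and fibroblast markers were lower (3 called), with sums of 3540 and 3088 at 12 weeks against 8227 and 6839 at 2 weeks. All 12 neutrophil markers were lower (0 called, 8 at an unadjusted p under 0.05), with sums of 475.6 and 404.0 at 12 weeks against 4093 and 630.5 at 2 weeks, so the first 2-week array stood apart. Of 10 lymphocyte markers 9 were higher (0 called, 5 at an unadjusted p under 0.05), with sums of 492.9 and 1085 at 12 weeks against 450.6 and 469.9 at 2 weeks. The second 12-week array, on which Hspa4l and Hspb1 were highest, thus also had the highest lymphocyte sum. At 4 against 2 weeks all 8 erythroid markers were lower (0 called, 3 at an unadjusted p under 0.05), with sums of 3081 and 4783 at 4 weeks. At 12 against 4 weeks all 8 erythroid markers and all 14 stellate and fibroblast markers were lower (0 called, 5 and 8 at an unadjusted p under 0.05), the stellate sums being 11320 and 4941 at 4 weeks. The first 4-week array also had the highest summed level of 8 cholangiocyte markers, at 4214 against 690.6 to 1017 on the other arrays. RMA values have no zero, so no marker could be listed at 0. The part of these shifts in the chaperone differences was not tested.

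The comparison of PH with 12 weeks asked how the remnant liver differs in the first hours after surgery, before its hepatocytes replicate DNA. The members listed here as ER chaperones lay on the same side in this comparison. All 13 of them were above 0 (50.3% of all genes were), with a median of 0.44 and a range from 0.06 to 1.37, beside a median of 0.00 over all genes and of 0.15 over the 70 members. In 9 of the 13 both PH arrays lay above both 12-week arrays, where 13.7% of all genes did. The ER list was chosen with earlier results of these data known, so these counts describe it and do not test it. None of the 70 members passed the test in limma (0.0345% of all genes were called), and 5 had an unadjusted p under 0.05 (6.01% of all genes), of which 4 were higher (3.03% of all genes). These 4 were Hspa13, Hyou1, Dnajb9 and Dnajb11, and the lower one was Dnajb7, which sits near the bottom of the scale. The count above 0 was 10 of 13 from the second PH array alone and 13 from the first alone. It was 13 against the second 12-week array alone, 12 against the first alone, and 12 with arrays centred on the 75th percentile. The ER median was 0.22 against the second 12-week array alone and 0.50 against the first alone.

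Hyou1 (Grp170), the HSP110-type nucleotide exchanger of BiP, was at 11.56 and 11.03 after PH, 9.71 and 9.65 at 2 weeks, 9.91 and 9.46 at 4 weeks, and 9.66 and 10.67 at 12 weeks. The PH arrays lay above all 6 others. It was 1.13 ± 0.36 above 12 weeks (log2, SE; adjusted p = 0.5789 in limma), at 0.62 against the second 12-week array alone and 1.63 against the first. Hspa13 (Stch), an HSP70 relative of the microsomes, was at 10.09 and 10.27 after PH, 9.52 and 8.96 at 2 weeks, 9.10 and 9.19 at 4 weeks, and 8.53 and 9.58 at 12 weeks. Again the PH arrays were highest, with a difference of 1.13 ± 0.36 from 12 weeks (adjusted p = 0.5579 in limma), with 0.61 against the second 12-week array alone and 1.65 against the first. Dnajb9 (ERdj4), a BiP co-chaperone that aids degradation of misfolded proteins and restrains the sensor IRE1, was at 8.83 and 9.22 after PH, 8.01 and 7.71 at 2 weeks, 7.49 and 8.91 at 4 weeks, and 7.07 and 8.24 at 12 weeks. Its difference after PH was 1.37 ± 0.51 (adjusted p = 0.7064 in limma), at 0.79 against the second and 1.95 against the first 12-week array, and the second 4-week array reached the PH level. Dnajb11 (ERdj3), which delivers secretory clients to BiP, was at 10.91 and 10.92 after PH, 10.08 and 9.56 at 2 weeks, 9.71 and 10.05 at 4 weeks, and 9.64 and 10.50 at 12 weeks. It differed by 0.84 ± 0.33 from 12 weeks (adjusted p = 0.7423 in limma), at 0.41 against the second and 1.28 against the first 12-week array. Hspa13 is counted with the HSP70 relatives and not among the 13.

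Hspa5, the BiP protein at the centre of this set, was at 13.02 and 13.10 after PH, 12.55 and 12.51 at 2 weeks, 12.20 and 11.67 at 4 weeks, and 11.83 and 12.90 at 12 weeks. It was 0.70 ± 0.35 higher after PH than at 12 weeks (adjusted p = 0.9267 in limma). That difference was 1.23 against the first 12-week array alone and 0.16 against the second. Pdia4 (Erp72), a disulfide isomerase, was at 12.21 and 11.93 after PH, against 11.57 and 11.70 at 12 weeks, a difference of 0.44 ± 0.22. Its 4-week values of 11.26 and 11.14 were the lowest of the 4 groups. Dnajc10 (ERdj5), a reductase that opens disulfides before degradation, was at 9.64 and 9.75 after PH, against 8.65 and 9.57 at 12 weeks. Dnajc3 (p58IPK), an inhibitor of the eIF2-alpha kinases that also acts with BiP, was at 11.67 and 11.22 after PH, against 11.31 and 11.40 at 12 weeks, so those groups overlapped. Hsp90b1 differed by 0.28 ± 0.21, Canx by 0.21 ± 0.23, Pdia6 by 0.16 ± 0.27, Pdia3 by 0.13 ± 0.25 and Calr by 0.06 ± 0.25 after PH. Calr, Dnajc3 (0.09 ± 0.24) and Pdia3 thus had the smallest differences of the ER set, and Dnajb9, Hyou1, Dnajb11 and Hspa5 the largest. Dnajc25, a J-protein of the ER membrane, was at 8.51 and 8.65 after PH, against 7.77 and 8.36 at 12 weeks, without overlap.

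**Figure D2:**
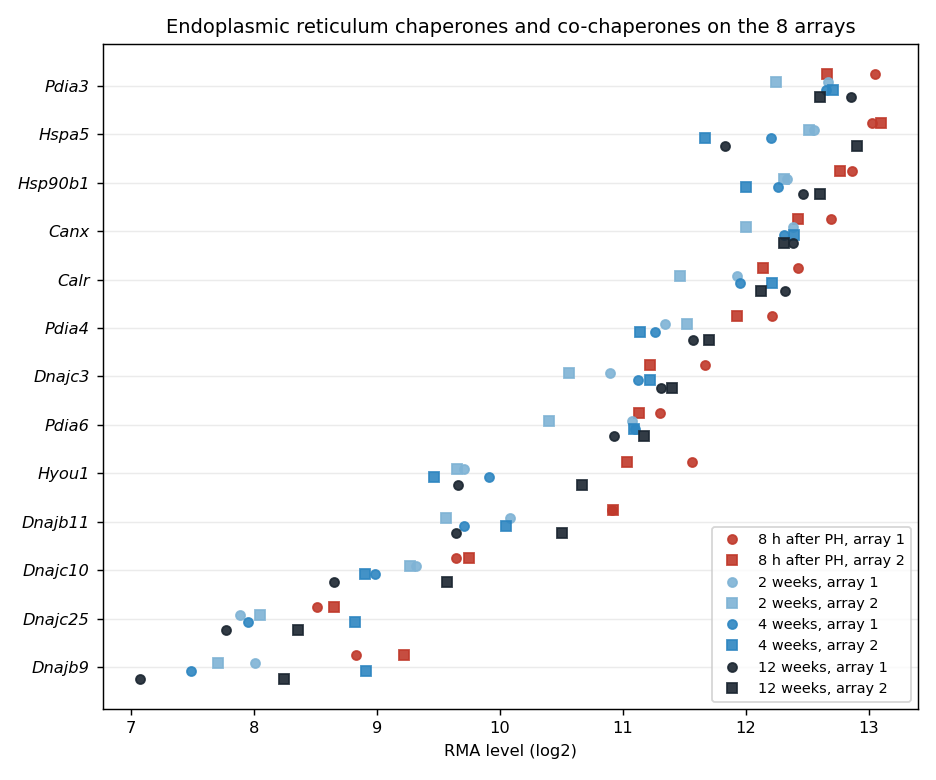
RMA levels (log2, horizontal axis) of the 13 ER chaperones and co-chaperones on each of the 8 arrays, ordered by mean level; colours are groups, circles first arrays and squares second arrays. For Hyou1 and Dnajb11 both PH arrays (11.56 and 11.03, 10.91 and 10.92) lie right of all other arrays, and for Hspa5 the second 12-week array (12.90) comes close to the PH arrays (13.02 and 13.10).

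Among cytosolic members, Hsp90aa1, the inducible HSP90, was at 12.09 and 12.04 after PH, 11.19 and 11.29 at 2 weeks, 10.62 and 10.18 at 4 weeks, and 10.83 and 12.00 at 12 weeks. The PH arrays were highest and the 4-week arrays lowest, while the 12-week arrays spanned most of that distance. Its difference of PH from 12 weeks was 0.65 ± 0.37 (adjusted p = 0.9815 in limma), at 0.07 against the second 12-week array alone and 1.24 against the first. Hsph1 (Hsp105), an HSP110 exchanger of cytosolic HSP70, was at 9.87 and 10.21 after PH, 8.25 and 9.13 at 2 weeks, 8.04 and 8.00 at 4 weeks, and 8.46 and 10.27 at 12 weeks. Its difference of PH from 12 weeks was -0.23 against the second 12-week array alone and 1.58 against the first, so the sign turned on 1 array. Hspa14, an HSP70 relative bound to ribosomes, was at 7.38 and 8.04 after PH, against 6.12 and 7.45 at 12 weeks (0.93 ± 0.46), with overlap. Hspa8 was at 13.72 and 13.88 after PH, against 12.85 and 13.80 at 12 weeks, and Hsp90ab1, the constitutive HSP90, at 12.80 and 12.47 after PH, against 12.64 and 12.61 at 12 weeks. Both pairs of groups overlapped. Dnajc2 (zuotin, the J-protein of the ribosome-associated complex) was at 7.96 and 7.98 after PH, against 6.92 and 7.67 at 12 weeks. Dnajc21, a J-protein of 60S ribosome maturation, was at 8.40 and 7.98, against 7.53 and 7.60. For both, the PH arrays lay above the 12-week arrays, with differences of 0.67 ± 0.31 and 0.62 ± 0.28 (adjusted p = 0.8673 and 0.8514 in limma). Over all 70 members, 17 had PH arrays above the 12-week arrays (24.3%, against 13.7% of all genes) and 7 had them below (10%, against 15.2%).

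No member was called lower after PH. Besides Hspa4l, the members with both PH arrays below both 12-week arrays were Dnajb7 (-0.50 ± 0.21), Hspb7 (-0.44, a small HSP of heart and skeletal muscle), Dnajb2 (-0.40 ± 0.23), Hspa12b (-0.33, an endothelial HSP70 relative), Hspb6 (-0.24 ± 0.24) and Dnajc4 (-0.14). In the same comparison all 10 measured lymphocyte markers were below 0, with sums of 420.2 and 483.1 after PH against 492.9 and 1085 at 12 weeks. Of 12 neutrophil markers 11 were above 0, with sums of 570.2 and 628.3 after PH against 475.6 and 404.0 at 12 weeks. In limma 0 markers of either list were called, and 2 lymphocyte markers and 1 neutrophil marker had an unadjusted p under 0.05. The part of these markers in the chaperone differences was not tested.

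**Figure D3:**
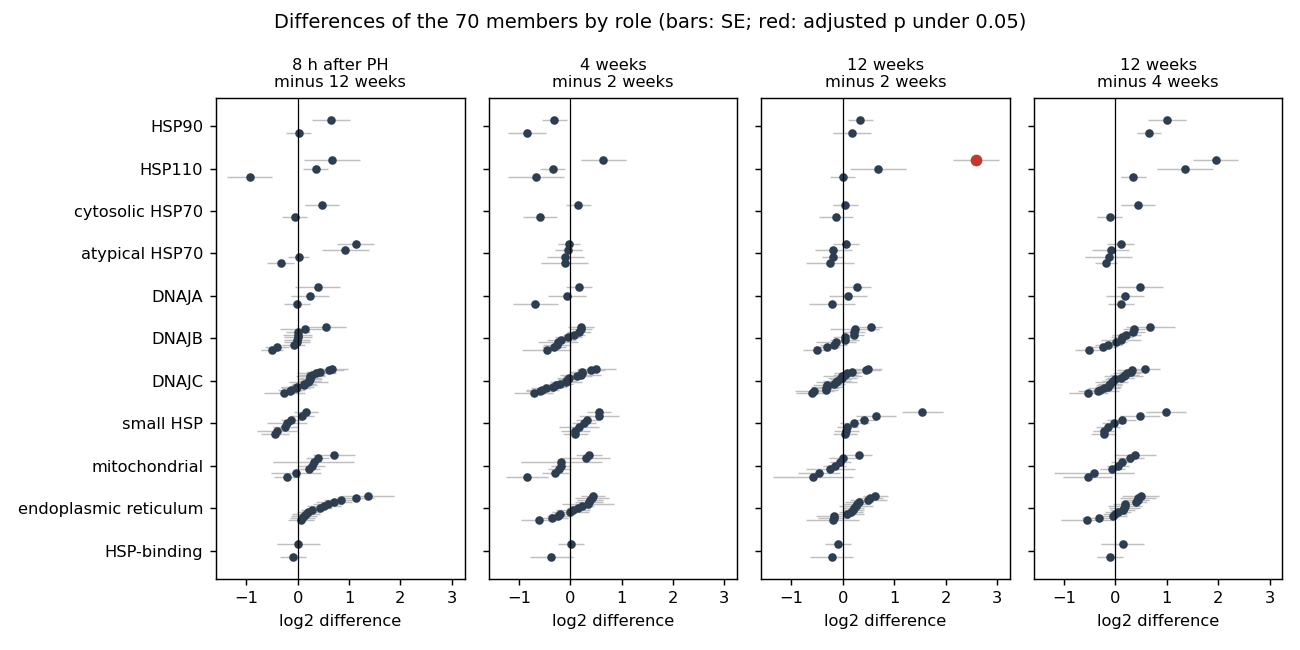
Log2 differences (horizontal axes) of the 70 members in 4 comparisons, grouped by role (vertical axis); points are members, grey bars are moderated SEs, and red marks an adjusted p under 0.05. The single red point is Hspa4l at 12 minus 2 weeks (2.59), and the ER row of the PH panel lies wholly above 0 (0.06 to 1.37).

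At 4 against 2 weeks both HSP90 genes were below 0 (Hsp90ab1 by -0.31 ± 0.24), and of the 3 HSP110 genes Hsph1 and Hspa4 (-0.34 ± 0.24) were below and Hspa4l above (0.64 ± 0.44). Between 4 and 2 weeks, Hsp90aa1 differed by -0.84 ± 0.37, Hsph1 by -0.67 ± 0.54, Hspa8 by -0.58 ± 0.33 and Hspa5 by -0.60 ± 0.35, with no overlap between the arrays of the 2 ages for any of these 4. In limma 0 of 70 members were called between 4 and 2 weeks (0.455% of all genes) and 1 had an unadjusted p under 0.05 (7.24% of all genes). The arrays at 4 weeks lay below those at 2 weeks for 22 members (31.4%, against 20.1% of all genes) and above them for 13 (18.6%, against 20.1%). Dnajc11, of the mitochondrial inner membrane organising system, differed by -0.84 ± 0.41. Dnajc18 (-0.71 ± 0.38) and Dnajc16 (-0.59 ± 0.28), both membrane-anchored J-proteins, and Dnaja2 (-0.68 ± 0.44), a cytosolic partner of Hspa8, were also lower without overlap. Dnajc9, a histone chaperone, differed by -0.54 ± 0.32, with 6.94 and 7.64 at 4 weeks against 7.83 and 7.82 at 2 weeks. Dnajc9 was at 6.92 and 7.53 at 12 weeks and differed by -0.60 ± 0.32 from 2 weeks (adjusted p = 0.5731 in limma). Of the 13 ER members 8 were above 0 and 5 below at 4 against 2 weeks, with 3 higher and 4 lower without overlap. Dnajc3 (0.44 ± 0.24) and Calr (0.38 ± 0.25) were among the higher ones. Besides Hspa5, the lower ones without overlap were Dnajc10 (-0.35 ± 0.30), Pdia4 (-0.23 ± 0.22) and Hsp90b1 (-0.19 ± 0.21).

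Between 12 and 4 weeks, 15 members had 12-week arrays above the 4-week arrays (21.4%, against 11.3% of all genes) and 4 had them below (5.71%, against 13.7%). In limma 0 of 70 were called (0.110% of all genes), and 5 had an unadjusted p under 0.05, all of them higher (4.47% of all genes in either direction, 1.66% higher). They were Hspa4l, Hsp90aa1 (1.01 ± 0.37), Hsp90ab1 (0.65 ± 0.24), Hspb1 and Hsph1 (1.35 ± 0.54). Hsp90ab1 was at 12.64 and 12.61 at 12 weeks, against 12.19 and 11.75 at 4 weeks, and its 12-week arrays lay close together. Hsp90aa1 and Hsph1 differed from 4 weeks by 0.42 and 0.44 on the first 12-week array alone, and by 1.59 and 2.25 on the second. Hspa4, the HSP110 member Apg2, was at 9.95 and 10.49 at 12 weeks, against 9.87 and 9.88 at 4 weeks. Dnajb13, a J-protein of sperm flagella, had the largest difference among the members lower without overlap (-0.52 ± 0.26), near the bottom of the scale. All 3 HSP110 and both HSP90 genes were above both 4-week arrays on each 12-week array.

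Between 12 and 2 weeks, besides Hspa4l and Hspb1, Dnajc3 (0.63 ± 0.24, adjusted p = 0.3607 in limma) and Dnajb2 (0.54 ± 0.23, adjusted p = 0.4215), a J-protein that sorts clients to the proteasome, had an unadjusted p under 0.05. These 4 of 70 (5.71%), all higher at 12 weeks, compare with 11.1% of all genes in either direction and 4.70% higher. Dnajc3 was at 11.31 and 11.40 at 12 weeks, against 10.89 and 10.56 at 2 weeks, and Dnajb2 at 8.75 and 8.54 against 8.15 and 8.07. Calr was 0.53 ± 0.25 higher at 12 weeks, and Dnajc22, a J-protein with membrane-spanning segments, 0.49 ± 0.27. The 12-week arrays lay above the 2-week arrays for 14 members (20%, against 16.8% of all genes) and below them for 5 (7.14%, against 17.6%). These 5 were Dnajc9, Dnajb3 (-0.51 ± 0.27), Dnajc8 (-0.33 ± 0.23), Dnajc21 (-0.30 ± 0.28) and Hspa12a (-0.20 ± 0.21). Over all arrays 38 of 70 members were above 0 (51.6% of all genes were). The count was 53 with the second 12-week array alone (48.5% of all genes) and 27 with the first alone (50.9%). The balance of the whole group between these ages thus turned on 1 array. With arrays centred on their medians the median of all genes was 0.13 in place of 0.01, and Hspa4l was at 2.71. Of the 70 members 45 were then above 0, where 63.6% of all genes were, so this count follows the shift of all genes.

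Hspe1 (Hsp10), the lid of the chaperonin, was at 9.56 and 11.36 after PH, 10.32 and 11.15 at 2 weeks, 9.84 and 11.29 at 4 weeks, and 9.25 and 11.06 at 12 weeks. The second array was higher in every group, and all 4 groups overlapped. Its partner Hspd1 (Hsp60), which shares the promoter letters shown above, was at 11.68 and 12.21 after PH, 11.47 and 11.87 at 2 weeks, 11.27 and 11.50 at 4 weeks, and 11.61 and 11.73 at 12 weeks. The second array was again higher in each group, by 0.12 to 0.52, and both PH arrays lay above both 4-week arrays. Hspa9 (mortalin), the HSP70 of the import motor, was among the steadiest members, with a range of 0.38 over the 8 arrays. Dnaja3 (Tid1), its J-domain partner, was at 9.74 and 9.55 after PH, against 9.21 and 9.30 at 12 weeks, without overlap (0.39 ± 0.22, adjusted p = 0.9815 in limma). Dnajc15, a J-protein of the import channel, was at 6.62 and 7.32 after PH, against 6.49 and 7.53 at 12 weeks, with overlap. Dnajc28, counted with the mitochondrial J-proteins, was at 6.98 and 7.41 at 12 weeks and 7.12 and 7.39 at 4 weeks, all above 6.88 and 6.88 at 2 weeks.

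None of the J-proteins passed the test in any of the 4 comparisons. Dnaja1, the main cytosolic partner of Hspa8, was at 11.00 and 11.25 after PH, 10.66 and 10.87 at 2 weeks, 10.52 and 10.87 at 4 weeks, and 10.28 and 11.46 at 12 weeks, so that all groups overlapped with the 12-week one. Dnajb1 (Hsp40), the heat-inducible partner, was at 8.99 and 8.86 after PH, 8.20 and 8.92 at 2 weeks, 7.74 and 8.46 at 4 weeks, and 8.06 and 9.50 at 12 weeks, with a difference of 0.14 ± 0.48 after PH. Dnajc12, a co-chaperone of the aromatic amino acid hydroxylases such as phenylalanine hydroxylase, had a mean of 9.41 and differed by -0.26 ± 0.40 after PH. The 10 DNAJB members not listed as ER or mitochondrial had median differences of -0.01 after PH and 0.04 at 12 against 2 weeks. The 17 DNAJC members likewise left over had medians of 0.22 and -0.11. Both groups are what remained by symbol, and a role in the ER or mitochondria is not excluded for their members. The DNAJC median at 12 against 2 weeks was 0.06 with the second 12-week array alone and -0.33 with the first, and after PH it was 0.11 to 0.29 with single arrays left out. Over the 8 arrays the range of a member had a median of 0.93, beside 0.88 for all genes, and 9 members ranged by under 0.50. The steadiest were Dnajc27 (0.34), Dnajc4 and Hspa12a (0.35 each), Dnajb6 (0.36) and Hspa9. Of the members with little or no detail above, 16 differed by between -0.37 (Hspbp1) and 0.46 (Dnajc6) in the 4 comparisons. Among these 16 were Dnajb5, Dnajb6, Dnajc5, Dnajc7, Dnajc8 and Dnajc14. Dnajb4 (0.56 ± 0.39 after PH) lay outside that range. So did Dnajc30, at 0.51 ± 0.38 for 4 against 2 weeks and -0.53 ± 0.38 for 12 against 4 weeks. Dnaja4 differed by -0.01 ± 0.26 after PH and by 0.28 ± 0.26 at 12 against 2 weeks.

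The spread between the 12-week arrays was large among the chaperones. At 12 weeks 18 of 70 members (25.7%) lay at least 2-fold apart, beside 12.7% of all genes, and all 18 were higher on the second array. They were Hsph1 (1.81), Hspe1, Hspa4l, Dnajb1, Hspa14, Dnaja1, Dnaja2 and Hsp90aa1, the ER members Dnajb9, Hyou1 and Hspa5, and Hspa13, Dnajb4, Dnajc11, Dnajc15, Dnajc18, Hspb8 and Hspbp1. After PH 1 member was as far apart (Hspe1), at 2 weeks 0 and at 4 weeks 4 (Dnajb9, Dnajc15, Dnajc30 and Hspe1). The median gap, second minus first array, was 0.34 over the members at 12 weeks, beside -0.02 over all genes. It was 0.04 after PH, 0.07 at 2 weeks and 0.08 at 4 weeks. The first 12-week array also had the highest receptor-gene median of the 8 (4.74, against 3.91 on the second), and the part of this in the gap was not tested. The SE of a member's difference of PH from 12 weeks in limma ran from 0.20 to 0.78 (median 0.27).

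**Figure D4:**
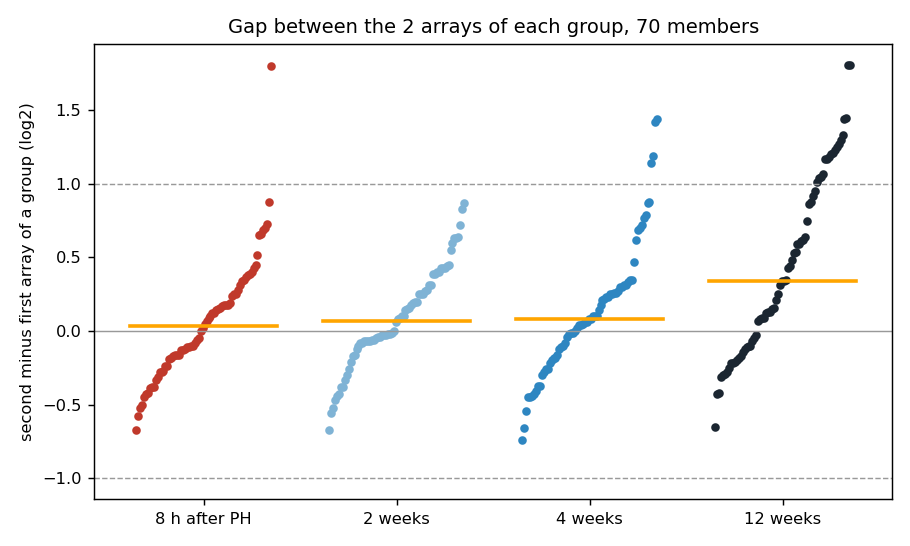
Gap between the second and the first array of each group (log2, vertical axis) for the 70 members, sorted within the groups PH, 2, 4 and 12 weeks; the orange line is the median of the members and dashed lines mark a 2-fold gap. At 12 weeks 18 members lie above the upper line and none below the lower one, and the median is 0.34.

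Set beside the promoter stretches, the 5 members with a heat shock element were all above 0 after PH against 12 weeks (median 0.31, range 0.25 to 0.67) and all below 0 at 4 against 2 weeks (median -0.29, range -0.67 to -0.07). Against the second 12-week array alone 1 of the 5 was above 0 after PH (median -0.23), so the first count rested on the first 12-week array. At 4 weeks 3 of the 5 were below 0 with the second 4-week array alone, and likewise against the first 2-week array alone. At 12 against 4 weeks 4 of the 5 were above 0 (median 0.29, 49.9% of all genes above 0), or 2 with the first 12-week array alone, and the exception was Hspe1 (-0.41 ± 0.78). The 5 members with an ER stress response element were also all above 0 after PH, with a median of 0.21 and a range from 0.06 (Calr) to 0.70 (Hspa5). That count was 3 with the second PH array alone. All 5 belong to the 13 ER members, which were all above 0 after PH (median 0.44). The count of 5 was therefore already contained in that result and adds nothing about the element. At 4 against 2 weeks 3 of these 5 were above 0 (median 0.16). The other 65 members had medians of 0.13 and 0.14 after PH, beside the heat shock and the ER element sets. Each of these groups of 65 includes the 14 members without a window, which could not be searched for either element. The 4 members that led the PH comparison, Hspa13, Hyou1, Dnajb9 and Dnajb11, had neither of these elements in the window, and Hyou1 had the TGACGTG core. None of these promoter groups was tested.

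Partner genes of the same pathways were counted from 5 lists of genes outside the membership. In the HSP70 and HSP90 cofactor list 1 of 24 measured genes passed in any comparison, at 12 against 2 weeks, where 2.23% of all genes were called. Fkbp5, an HSP90 immunophilin that is induced by glucocorticoids, was at 9.03 and 8.40 after PH, 8.78 and 8.77 at 2 weeks, 8.09 and 7.60 at 4 weeks, and 6.78 and 7.47 at 12 weeks. It fell by 1.65 on the log2 scale (SE 0.33, adjusted p = 0.04413 in limma) at 12 against 2 weeks, was called in 7 of 15 alternatives (adjusted p between 0.02698 and 0.2339), and was 1.59 ± 0.33 higher after PH than at 12 weeks (adjusted p = 0.2392). The call was lost with any 1 array left out other than the second 12-week array, and with the second 12-week array alone the difference was -1.30 (adjusted p = 0.152). Fkbp4, its counterpart that activates steroid receptors, ran the other way, at 10.47 and 10.77 at 12 weeks against 9.86 and 9.70 at 2 weeks (0.84 ± 0.22, adjusted p = 0.1273 in limma). Bag3, the partner of Hspb8, differed by 1.15 ± 0.34 between 12 and 2 weeks (adjusted p = 0.1823 in limma).

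In the ER folding and unfolded protein response list 0 of 24 genes passed in limma in any comparison, and 6 had an unadjusted p under 0.05 after PH, where 6.01% of all genes did. Of the 24, 21 were above 0 after PH (median 0.26), and 15 to 21 with single arrays left out. The largest differences there were Creld2 (1.63 ± 0.39, adjusted p = 0.3375), a disulfide isomerase-like factor, Manf (1.11 ± 0.48), a secreted ER stress factor, and Herpud1 (0.92 ± 0.27), of ER-associated degradation. Creld2 was at 10.32 and 10.36 after PH, against 8.13 and 9.29 at 12 weeks, and the PH arrays were above all others. Of 12 chaperonin TRiC and prefoldin subunits, 11 were above 0 after PH (median 0.43), but 6 against the second 12-week array alone (median -0.02) and 8 with the first PH array alone. At 4 against 2 weeks 11 were below 0 (median -0.43), and 10 to 12 with single arrays left out, again with 0 called in limma and 0 at an unadjusted p under 0.05. Of 13 mitochondrial import and protease genes 9 were above 0 after PH (median 0.30, or 0.03 against the second 12-week array alone), with the same 2 counts at 0. Among 5 heat shock factor genes 0 were called in limma in any comparison, and 1 (Hsf2 at 4 against 2 weeks, 0.55 ± 0.23) had an unadjusted p under 0.05. Hsf1, the main stress activator, differed by -0.12 ± 0.26 after PH and by 0.13 ± 0.26 at 12 against 2 weeks, and Hsf2 by -0.33 ± 0.23 and 0.26 ± 0.23.

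Across all 4 groups at once, limma's moderated F test called 0 of 70 members, where 1.79% of all genes were called, and 8 had an unadjusted p under 0.05 (11.0% of all genes). The 8 were Hspa4l (adjusted p = 0.06971), Hyou1 (0.1475), Hsp90aa1, Hspb1, Pdia4, Hsph1, Dnajb11 and Hspa13. With the second 12-week array alone in its group the test called Hspa4l, Hsp90aa1, Hsph1 and Hyou1, and with the first alone Hspa4l, Hsp90aa1 and Hyou1, in both cases with the error taken from the other 3 groups only.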

How the data were processed

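Liver RNA of 8 arrays in 4 groups was compared. The deposited values are log2 levels per probe set. Per the submitters' processing notes, the authors used Affymetrix Expression Console for RMA. Software versions were not given in the sources used. The log2 values ran from 1.32 to 14.23, with array medians between 5.98 and 6.17, and the number of arrays limits the precision.

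Of 29214 probe sets, 15316 had 1 gene symbol, 317 had several and 13581 were unnamed here; 15285 with a single symbol were found in the current GRCr8 gene table, and 0 symbols had to be replaced. Genes with several probe sets (528) kept that with the highest mean, leaving 14511. One linear model of the 4 groups was fitted in limma 3.58.1 (R 4.3.3, lmFit and eBayes, 4 residual and 4.27 prior degrees of freedom). Calls needed an adjusted p (Benjamini-Hochberg over 14511 genes) under 0.05. The fit was tested on simulated data.

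The members and lists were chosen with earlier results of these data known. Genes were named if called, if among the 10 largest non-overlapping differences in either direction, the 10 highest or 5 lowest levels, or a preset group of classic members. Not every such gene is given with its difference in every comparison. Partner genes were named if called or large, and Hsf1, Hsf2, Fkbp4, Bag3, Dnajb2 and the steadiest members were partly chosen after their values were seen. Alternatives covered scaling, low-level genes, probe sets, arrays in the fit, the variance prior, the replicate number and each array left out.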

Additional observations from a re-analysis of the deposited data

How the results depend on the processing

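For PH against 12 weeks and for 4 against 2 weeks, 0 members were called in every alternative run. For 12 against 2 weeks the 1 call became 2 with arrays centred on the 75th percentile (Hspb1 added, adjusted p = 0.04692 in limma), 0 with genes below the median level left out (Hspa4l was then not tested), 0 with the arrays of the 2 groups alone and 0 to 1 with single arrays left out. For 12 against 4 weeks leaving out single arrays gave 0 to 1 calls, the 1 being Hspa4l without the first 12-week array (adjusted p = 0.03238). For the F test over the 4 groups median and 75th percentile centring gave 1 call each (Hspa4l), and leaving out single arrays 0 to 4. The small HSPs above 0 at 12 against 2 weeks and at 4 against 2 weeks ran from 4 to 7 of 7 with single arrays left out, a check chosen after seeing the data. The cause of these changes was not tested.

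With the replicate block (the number in the titles as a term) 2 members were called at 12 against 2 weeks, Hspa4l and Hspb1 (adjusted p = 0.005595), and the same 2 in the F test; it changed no other member count. Over all genes the difference between first and second arrays correlated between the groups compared at 0.57 for PH and 12 weeks, 0.34 for 12 and 4 weeks, 0.18 for 4 and 2 weeks and 0.02 for 12 and 2 weeks. With 2 numbers these values do not establish a pairing, and whether arrays of 1 number share a day or batch is not known. Of 4132 single differences recomputed, 3 lost and 3 gained a call and 0 called ones changed sign.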
